A study of Mus musculus with 2 samples.

Results

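The 10 genes *Glul*, *Oat*, *Axin2*, *Lgr5*, *Tbx3*, *Rnf43*, *Znrf3*, *Slc1a2*, *Rhbg* and *Nkd1*, which hepatocytes around the central vein of the liver lobule express under Wnt signalling, were examined in liver mRNA sequencing. They were chosen by symbol and not by their values, although earlier results of these data were known. All 10 had a row in both deposited liver files, among 53342 rows with 53241 distinct symbols. The iFIRKO group carried Adipoq-CreERT2 and Insr flox/flox, so that tamoxifen removes the insulin receptor in cells that use the adiponectin promoter, that is adipocytes and not hepatocytes. The control is labelled WT, while the study's methods describe controls as IR flox/flox without Cre. Both groups were male, were injected at 7 weeks of age with tamoxifen (100 mg/kg on each of 5 days) and had their livers taken 3 days later. There was 1 library per genotype, and the number of mice behind a library is not given in the sources used here. No difference below therefore has a replicate check, and no p-value was computed.

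Wnt ligands bind Frizzled receptors together with LRP5 or LRP6, which stops the destruction complex from degrading β-catenin, and β-catenin then activates genes with TCF/LEF factors. In the liver the ligands and R-spondin 3 come mostly from endothelial cells of the central vein, and the narrow ring of hepatocytes next to it is known for glutamine synthesis, which clears ammonia before blood leaves the lobule. R-spondins bind LGR4 or LGR5 and keep the ubiquitin ligases RNF43 and ZNRF3 from removing Frizzled. Several of the genes followed here, such as *Axin2*, *Nkd1*, *Rnf43* and *Znrf3*, restrain the pathway that induces them.

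The promoters of *Glul* and *Oat*, the most abundant of the 10, and of *Axin2*, which had the largest difference, are shown because RefSeq and GENCODE starts of these genes lie within 15 bases of each other. Each is the 250 bases before the RefSeq start on GRCm38.p6, read 5′ to 3′ on the strand of the gene, with CpG dinucleotides in capitals. The windows are chr1:153899679-153899928 on the forward strand for *Glul*, chr7:132576399-132576648 on the reverse strand for *Oat* and chr11:108920099-108920348 on the forward strand for *Axin2*.
Glul: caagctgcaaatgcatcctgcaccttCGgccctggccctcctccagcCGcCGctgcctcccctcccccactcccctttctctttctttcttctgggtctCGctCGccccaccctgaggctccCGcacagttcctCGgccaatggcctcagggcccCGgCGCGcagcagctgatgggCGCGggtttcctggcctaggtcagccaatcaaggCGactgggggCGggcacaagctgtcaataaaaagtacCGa
Oat: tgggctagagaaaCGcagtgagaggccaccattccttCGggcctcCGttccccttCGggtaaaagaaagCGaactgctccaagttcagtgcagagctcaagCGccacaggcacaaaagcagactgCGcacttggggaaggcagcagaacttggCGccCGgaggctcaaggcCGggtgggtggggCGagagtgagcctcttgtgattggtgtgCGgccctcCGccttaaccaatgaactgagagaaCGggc
Axin2: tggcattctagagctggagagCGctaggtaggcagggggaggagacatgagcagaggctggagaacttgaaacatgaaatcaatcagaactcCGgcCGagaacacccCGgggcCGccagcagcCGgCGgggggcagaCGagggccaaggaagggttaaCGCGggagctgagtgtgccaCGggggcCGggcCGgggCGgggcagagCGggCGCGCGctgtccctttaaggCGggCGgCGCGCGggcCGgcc

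The *Axin2* window held 24 CpG dinucleotides, the *Glul* window 15 and the *Oat* window 14, against a median of 6 over 32851 RefSeq promoter windows. At 24, *Axin2* had as many or more CpG than 89.3% of the windows. RefSeq windows were matched for 6 of the 10 genes (7 windows, *Rnf43* having a pair of starts), with *Lgr5*, *Tbx3*, *Znrf3* and *Rhbg* not matched. The TCF/LEF recognition motif was searched as CTTTGAT and as CTTTGAA on both strands in the 250 bases before each start. Either form was found in 7.48% of all windows and in 1 of the 7 windows of these genes, that of *Slc1a2*. There the match to CTTTGAT lay on the opposite strand, in capitals in this stretch from chr2:102706221-102706247 on the forward strand.
Slc1a2: gaagagggacATCAAAGgccccaaatg

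The RefSeq start of *Slc1a2* lies 47779 bases inside the GENCODE gene, so this stretch belongs to an internal start. The starts of *Nkd1* (6279 bases) and *Rnf43* (365 and 37175 bases) also lie inside their GENCODE genes. Only the windows of *Glul*, *Oat* and *Axin2* lie outside the GENCODE gene. A match in these letters is a description and not a binding site, and windows of this length leave out the more distant elements.

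Values are the authors' normalized read counts, returned from the log2 to the linear scale. The totals were 42003900 normalized reads in the control library against 41579630 in the iFIRKO library, an estimated 21138292 and 20652476 read pairs. From the estimated pairs, 95% intervals were computed, exact Poisson for single values and exact Clopper-Pearson for fold changes. Both cover counting error only. They compare 2 libraries and say nothing about the spread between mice. Albumin mRNA (*Alb*), the main secretory product of hepatocytes, had 4167154 normalized reads in the control library against 3944155 in the iFIRKO library, whereas the adipocyte hormone gene *Adipoq* was listed at 0 and at 2.01. Of 8 hepatocyte markers, 7 were in the files and all 7 were expressed in both libraries.

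*Glul* and *Oat*, the most abundant of the 10, differed little. *Glul*, which encodes glutamine synthetase (ENSMUSG00000026473.15, chromosome 1, 153899944 to 153909723), had 26414 normalized reads in the control liver (95% interval 25967 to 26867) against 27001 in the iFIRKO liver (26545 to 27461). The intervals overlapped, and the log2 fold change of iFIRKO over control was 0.03, with an interval from -0.0031 to 0.07. *Oat*, encoding ornithine aminotransferase, which feeds ornithine into glutamate (ENSMUSG00000030934.9, chromosome 7, 132557478 to 132576398), had 25882 normalized reads in control (25439 to 26330) against 22784 in iFIRKO (22367 to 23208). Its log2 fold change was -0.18 (interval -0.22 to -0.15), a fold of 0.88, and the 2 counting intervals did not overlap. *Glul* and *Oat* thus lay apart in the same libraries, by 0.22 on the log2 scale with an interval from 0.17 to 0.27, a comparison that no scaling of a library can alter. The antisense neighbour *Teddm2*, which overlaps an exon of *Glul*, had only 40.1 and 36.0. Together *Glul* and *Oat* made up 88.2% of the normalized reads of the 10 genes in control and 87.3% in iFIRKO.

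*Slc1a2* encodes the glutamate transporter GLT-1 (ENSMUSG00000005089.15, chromosome 2, 102658659 to 102790784). It had 4087 normalized reads in control (3913 to 4268) against 3836 in iFIRKO (3665 to 4012). The log2 fold change was -0.09, and its interval from -0.18 to -0.0012 ended just below 0. *Rhbg* encodes an ammonia transporter of the Rhesus family (ENSMUSG00000104445.1, chromosome 3, 88242874 to 88254709). It had 386.7 normalized reads in control (335.0 to 445.9) against 436.3 in iFIRKO (380.7 to 499.0), giving a log2 fold change of 0.17 that this depth could not tell from 0 (interval -0.11 to 0.46). An exon of *Rhbg* is shared with the annotated gene *Gm38392* on the same strand (231.1 and 273.7 normalized reads), so its value depends on how shared reads were assigned.

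*Axin2*, a scaffold of the β-catenin destruction complex and a widely used readout of Wnt signalling (ENSMUSG00000000142.15, chromosome 11, 108920349 to 108950783), showed the largest difference of the 10. It had 285.1 normalized reads in the control liver (239.5 to 334.7) against 401.9 in the iFIRKO liver (348.8 to 462.5), and these intervals did not overlap. The log2 fold change of 0.49 (interval 0.19 to 0.82) is a fold of 1.40, short of the 1.5-fold threshold, although the interval reaches past it. Of all tested genes, 15.9% differed by at least as much in either direction. *Nkd1* encodes a Dishevelled-binding inhibitor (ENSMUSG00000031661.12, chromosome 8, 88521354 to 88594884). It had 153.4 normalized reads in control (120.8 to 191.2) against 199.1 in iFIRKO (162.0 to 242.7), with overlapping intervals. Its log2 fold change was 0.37 (interval -0.06 to 0.83).

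The genes of the receptor-removing ubiquitin ligases had values on either side of 0. *Rnf43* (ENSMUSG00000034177.15, chromosome 11, 87662722 to 87735539) had 543.2 normalized reads in control (480.0 to 610.8) against 635.1 in iFIRKO (566.1 to 708.2), giving a log2 fold change of 0.22 (interval -0.01 to 0.46). *Znrf3* (ENSMUSG00000041961.14, chromosome 11, 5276324 to 5444847) had 470.6 in control (412.9 to 534.9) against 416.4 in iFIRKO (361.9 to 477.6), giving a log2 fold change of -0.17 (interval -0.45 to 0.10). Neither differed alone beyond counting error. The ratio of *Rnf43* to *Znrf3* reads was 1.15 in control and 1.53 in iFIRKO, a log2 difference of 0.40 with an exact interval from 0.03 to 0.77.

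*Lgr5* encodes an R-spondin receptor that marks the innermost pericentral hepatocytes (ENSMUSG00000020140.15, chromosome 10, 115450311 to 115587780) and had the lowest fold change of the 10. It had 163.3 normalized reads in control (129.6 to 202.3) against 118.7 in iFIRKO (90.4 to 153.2), from an estimated 82 and 59 read pairs. The log2 fold change was -0.45, and the interval was wide, from -0.96 to 0.04, which includes 0. *Tbx3*, a T-box transcriptional repressor (ENSMUSG00000018604.18, chromosome 5, 119670669 to 119684724), had 929.2 normalized reads in control (847.6 to 1018) against 1201 in iFIRKO (1107 to 1302). These intervals did not overlap, and the log2 fold change was 0.37 (interval 0.19 to 0.55). The antisense gene *Tbx3os1* overlaps an exon of *Tbx3* on the opposite strand. It had 432.1 normalized reads in control against 328.1 in iFIRKO, lower where *Tbx3* was higher. The libraries were stranded, but whether strand was used in counting is not given in the sources used here.

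**Figure D1:**
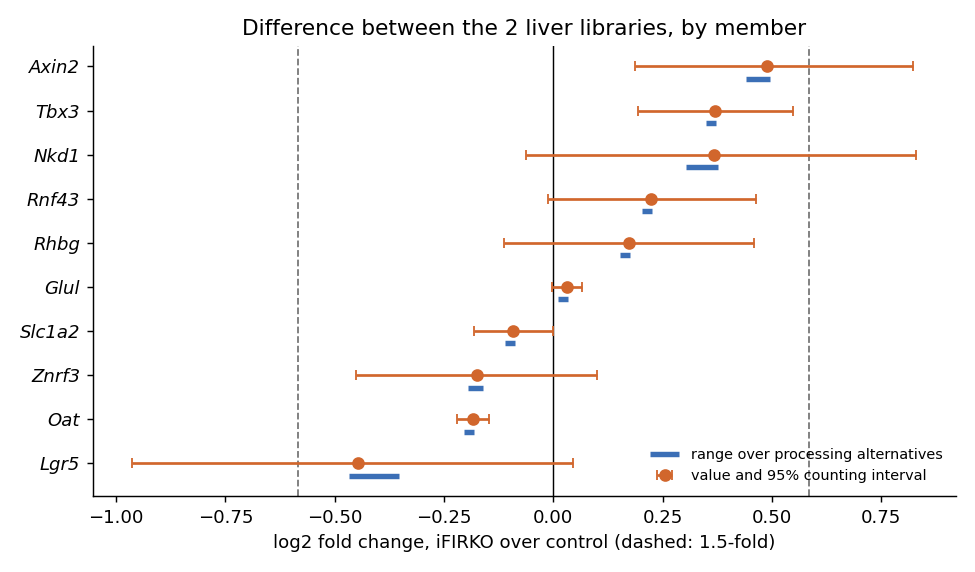
Log2 fold change of iFIRKO over control for each of the 10 genes (points) with 95% counting intervals (orange bars), the range over the processing alternatives (blue bars) and the 1.5-fold limits (dashed lines). All 10 points lie between -0.45 (*Lgr5*) and 0.49 (*Axin2*), inside the dashed lines.

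Fold changes were compared over the 13400 genes that reached 41.8 normalized reads, equal to a CPM of 1, in either library. These are called tested genes, and all 10 were among them. None of the 10 was more than 1.5-fold higher or lower. Over all tested genes 4.46% were more than 1.5-fold higher and 7.28% more than 1.5-fold lower. Within the range of mean levels spanned by the 10 genes, from *Lgr5* to *Glul*, the shares were 2.75% and 4.51% of 10654 genes. At such shares a count of 0 in 10 genes is near the background. Of the 10, 6 had a log2 fold change above 0 and 4 below, with a median of 0.10 beside 0.01 for all tested genes. The interval lay wholly above 0 for *Axin2* and *Tbx3*, wholly below 0 for *Oat* and *Slc1a2*, and included 0 for the other 6 genes. With trimmed mean of M values scaling the interval of *Slc1a2* reached 0.0015 and included 0 as well. Of the 45 pairs among the 10 genes, 22 had an exact interval for the difference of their fold changes that left out 0, without adjustment for the number of pairs. The widest gap lay between *Axin2* and *Lgr5*, 0.96 on the log2 scale (interval 0.36 to 1.56).

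Levels were compared between genes per kilobase of annotated exon. In the control liver the order was *Oat* (10967 normalized reads per kilobase), *Glul* (7949), *Slc1a2* (311.2), *Rhbg* (199.6), *Tbx3* (140.3), *Rnf43* (82.8), *Znrf3* (59.6), *Axin2* (51.8), *Nkd1* (33.7) and *Lgr5* (15.9). Neighbours were compared by the exact Clopper-Pearson interval of their ratio. It included 0 on the log2 scale for *Znrf3* over *Axin2* (0.20, interval -0.10 to 0.52) and for no other neighbours in control. In the iFIRKO liver *Axin2* (73.0) stood above *Znrf3* (52.8), by 0.47 on the log2 scale (interval 0.18 to 0.76), and the rest of the order was the same. There *Znrf3* and *Nkd1* (43.7) could not be told apart (0.27, interval -0.08 to 0.63), whereas *Rhbg* (225.2) stood above *Tbx3* (181.3) by 0.31 (interval 0.08 to 0.54). *Oat* stood above *Glul* in both libraries, at 9654 against 8126 normalized reads per kilobase in iFIRKO. With the longest annotated transcript as length, the order stayed the same in the control library, and *Tbx3* and *Rhbg* changed places in the iFIRKO library. 

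**Figure D2:**
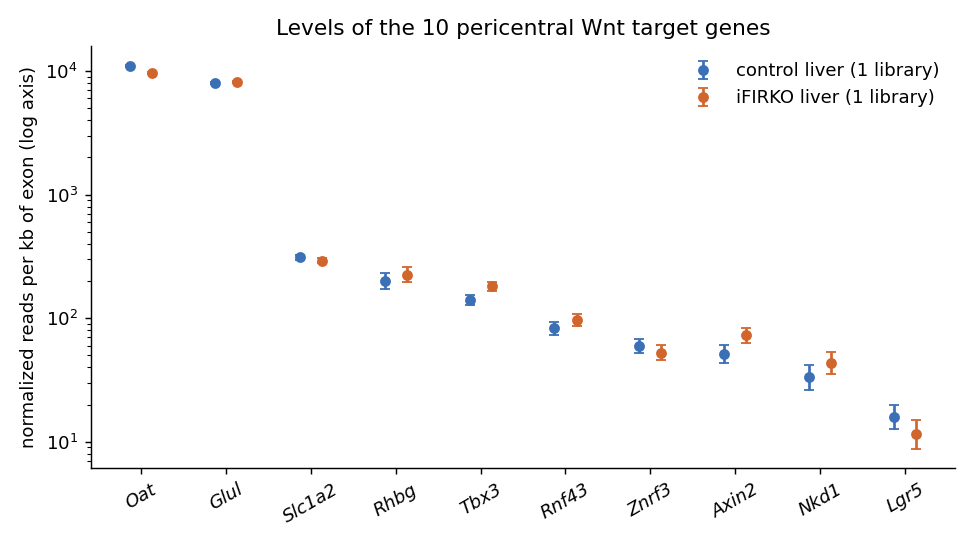
Normalized reads per kilobase of annotated exon (log axis) for the 10 genes in the control library (blue) and the iFIRKO library (orange), with 95% Poisson intervals, ordered by the control level. *Oat* and *Glul* stand between 7949 and 10967, the other 8 genes between 11.6 and 311.2.

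Related genes outside the set gave a comparison free of scaling. The close relative *Axin1*, which is not induced by the pathway, had 949.0 normalized reads in control against 893.5 in iFIRKO, giving a log2 fold change of -0.09 (interval -0.28 to 0.10). The ratio of *Axin2* to *Axin1* was 0.30 in control and 0.45 in iFIRKO, a log2 difference of 0.58 with an exact interval from 0.22 to 0.96. *Lgr4*, the R-spondin receptor found across the lobule, had 2530 and 1766 normalized reads, for a log2 fold change of -0.52 (interval -0.64 to -0.39). The difference between *Lgr5* and *Lgr4* was 0.06, and its interval from -0.46 to 0.58 spans sizable differences in either direction. *Tbx2* had 262.8 and 216.6 normalized reads, and the ratio of *Tbx3* to *Tbx2* was 3.54 in control and 5.55 in iFIRKO (log2 difference 0.65, interval 0.22 to 1.06).

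The relatives of *Slc1a2* went in opposite directions. *Slc1a4*, a transporter of neutral amino acids such as alanine and serine, had 619.9 normalized reads in control against 1280 in iFIRKO, giving a log2 fold change of 1.04 (interval 0.85 to 1.25). It was the only tested relative past 1.5-fold. *Slc1a5*, a glutamine carrier, had 670.5 and 477.6, a log2 fold change of -0.49 (interval -0.73 to -0.24). The ratio of *Slc1a2* to *Slc1a4* was 6.59 in control and 3.00 in iFIRKO, and that of *Slc1a2* to *Slc1a5* was 6.10 and 8.03. Of 15 relatives listed, 5 passed the minimum level, and the Rhesus relatives *Rhag* and *Rhcg* were among those that did not.

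**Figure D3:**
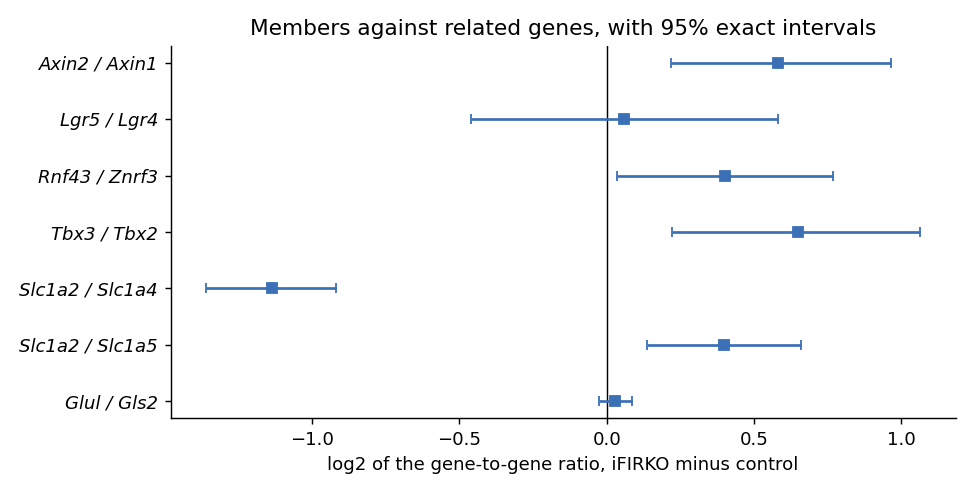
Difference between the libraries in the log2 ratio of a gene to a related gene (squares, iFIRKO minus control) with 95% exact intervals. The interval leaves out 0 for *Axin2*/*Axin1*, *Rnf43*/*Znrf3*, *Tbx3*/*Tbx2*, *Slc1a2*/*Slc1a4* and *Slc1a2*/*Slc1a5*, and includes it for *Lgr5*/*Lgr4* and *Glul*/*Gls2*.

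The rest of the Wnt pathway showed few differences past 1.5-fold. In 6 lists of ligands, receptors, inhibitors, destruction complex, nuclear factors and other targets, 53 of 93 genes in the files passed the minimum level. Of these 1 was higher and 2 were lower, with a median log2 fold change of 0.04. At 4.46% and 7.28% of all tested genes, these counts were no more than the background.

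Among 25 genes for ligands, R-spondins and their secretion, 9 were tested, and 12 were listed at 0 in both libraries. *Wnt9b*, a ligand made by central vein endothelium, was the 1 gene past the threshold. It had 47.7 normalized reads in control against 89.2 in iFIRKO, an estimated 24 and 44 read pairs, with a log2 fold change of 0.85 (interval 0.14 to 1.68). *Wnt2*, from the same cells, had 45.7 and 69.5 normalized reads, for a log2 fold change of 0.56 whose interval ran from -0.22 to 1.41, although without the pseudocount it was 1.52-fold higher and past the threshold. *Rspo3* had 168.9 and 185.2, a log2 fold change of 0.13 (interval -0.31 to 0.58). *Wnt4* had 138.5 and 101.1 (interval -1.02 to 0.08), the most abundant ligand *Wnt5b* had 550.4 and 505.8, and *Wls*, which carries Wnt proteins to the surface, had 224.4 and 232.3.

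Endothelial markers went the other way from *Wnt9b*. Of 13 endothelial markers, 0 were more than 1.5-fold higher and 3 were lower, beside 4.46% and 7.28% of all tested genes. The 3 were *Kdr* (-0.79), *Pecam1* (-0.70) and *Fcgr2b* (-0.69), and the median log2 fold change of the list was -0.32. The summed level of all 13 markers was 18480 normalized reads in control against 14031 in iFIRKO, a log2 ratio of -0.40. This list covers endothelium in general and was not chosen for the central vein. Its lower sum enters every ratio to it that follows. Per 1000 normalized reads of these markers, *Wnt9b* had 2.58 in control and 6.36 in iFIRKO, a log2 difference of 1.30 (exact interval 0.54 to 2.07). *Wnt2* had 2.47 and 4.95 (log2 difference 1.001, interval 0.17 to 1.81), and *Rspo3* had 9.14 and 13.2 (0.53, interval 0.09 to 0.98). Taken alone, the log2 fold changes of *Wnt2* and *Rspo3* had intervals that included 0. Of the other central vein genes, *Thbd* had a log2 difference of 0.47 (interval 0.02 to 0.92), while the intervals of *Cdh13* (0.42, interval -0.37 to 1.198) and *Kit* (0.08, interval -0.32 to 0.46) included 0. In bulk liver, fewer cells of a type and less RNA per cell cannot be told apart, and the part of endothelial cell number in these values was not tested. Of the 6 central vein genes, *Kit* had 253.9 and 204.2 normalized reads and was the only one with a log2 fold change below 0.

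None of the 11 tested receptor genes passed 1.5-fold, and their median was -0.0035. The co-receptor genes *Lrp5* (2624 and 3084 normalized reads, log2 fold change 0.23) and *Lrp6* (3335 and 3022, -0.14) had the most normalized reads. Per kilobase of exon, *Lgr4* stood highest in control (430.0, beside 269.5 for *Lrp5* and 243.9 for *Lrp6*). In iFIRKO the per-kilobase levels were 316.6 for *Lrp5*, 300.1 for *Lgr4* and 221.0 for *Lrp6*. The Frizzled gene *Fzd6* had 250.9 and 166.1, a log2 fold change of -0.58 (interval -1.02 to -0.19). Its call turned on the pseudocount, since the plain ratio was 1.51-fold, past the threshold. *Fzd1* had 294.0 and 358.3 (0.28). Of 4 tested inhibitor genes, *Notum*, encoding a Wnt deacylase that is itself a pericentral Wnt target, had 1038 and 907.1, a log2 fold change of -0.19 (interval -0.38 to -0.0075). *Kremen1* had 518.9 and 703.1, a log2 fold change of 0.44 (interval 0.20 to 0.68). *Frzb* had 124.2 and 114.7.

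The intracellular machinery was nearly level between the libraries. For β-catenin itself, *Ctnnb1* had 8684 normalized reads in control against 8180 in iFIRKO, giving a log2 fold change of -0.09 (interval -0.15 to -0.02). All 13 tested genes of the destruction complex and the Dishevelled family lay between -0.31 (*Dvl2*) and 0.22 (*Gsk3a*), with a median of 0.04. The 12 tested nuclear factor genes lay between -0.26 (*Tle4*, a corepressor) and 0.36 (*Bcl9l*, a coactivator, 1569 and 2018 normalized reads), with a median of 0.06.

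Other target genes of the pathway had a median log2 fold change of -0.19, with 6 values below 0 and 1 above. With a minimum CPM of 5, which leaves fewer genes, the median was -0.56. Of 15 listed, 7 were tested, and 2 were more than 1.5-fold lower, beside 7.28% of all tested genes. *Cd44*, a hyaluronan receptor also abundant on leukocytes, had 1048 and 591.7 normalized reads, for a log2 fold change of -0.82 (interval -1.04 to -0.62). *Myc* had 490.9 and 320.6, a log2 fold change of -0.61 (interval -0.91 to -0.32). *Ccnd1*, encoding cyclin D1, had 3338 and 2262, a log2 fold change of -0.56 that stayed within 1.5-fold (interval -0.67 to -0.45). These genes respond to many other signals. The Kupffer cell list, beside *Cd44*, had a median of -0.62 with all 9 markers below 0, from *Cd5l* (-0.79) to *Marco* (-0.29). Of the 9, 6 were more than 1.5-fold lower, beside 7.28% of all tested genes. The summed level of the list was 37886 and 24554 normalized reads. The 9 lymphocyte and neutrophil markers summed to 675.6 and 233.5. Of these, 4 of 4 tested were more than 1.5-fold lower, beside 7.28% of all tested genes. The part of these cells in the *Cd44* value was not tested.

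**Figure D4:**
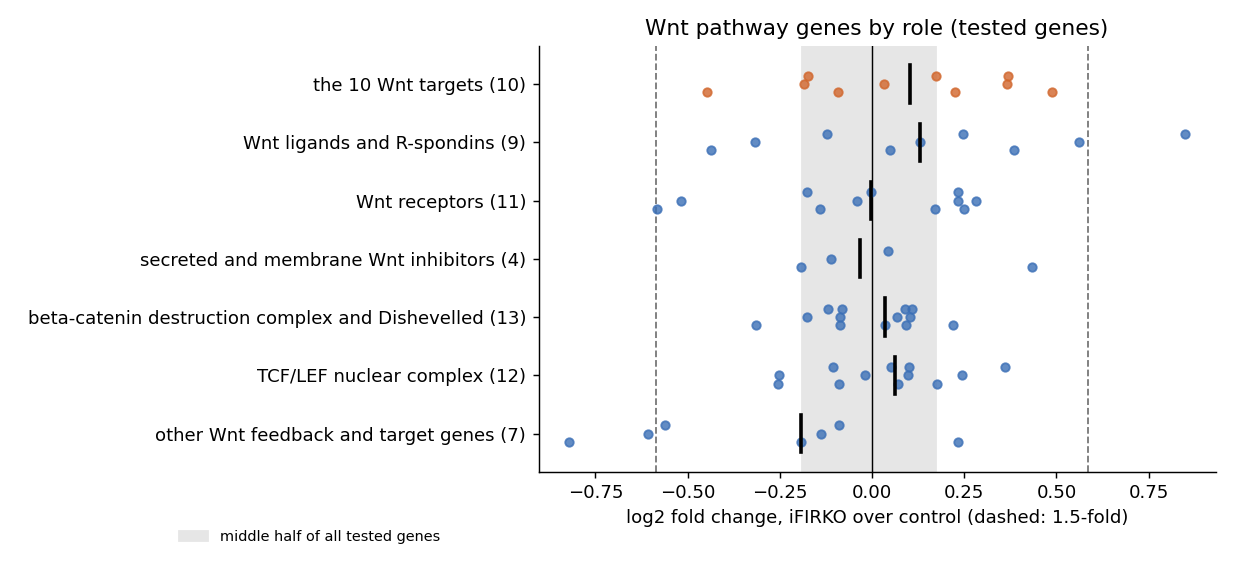
Log2 fold change of iFIRKO over control for tested genes of the Wnt pathway by role (blue) and for the 10 target genes (orange), with list medians (black bars), the interquartile band of all tested genes (grey, -0.19 to 0.17) and the 1.5-fold limits (dashed). *Wnt9b* at 0.85, *Myc* at -0.61 and *Cd44* at -0.82 lie outside the limits.

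Pericentral hepatocyte genes outside the set ranged from a log2 fold change of -0.74 to 0.99, and the 10 from -0.45 to 0.49. All 17 were tested, 2 being more than 1.5-fold higher and 4 lower, beside 4.46% and 7.28% of all tested genes, with a median log2 fold change of -0.11. *Gstm3*, encoding a glutathione transferase, had 2962 normalized reads in control against 5884 in iFIRKO, giving a log2 fold change of 0.99 (interval 0.90 to 1.08). *Aldh3a2*, a fatty aldehyde dehydrogenase gene, had 12297 and 21613 (0.81, interval 0.77 to 0.86). The 4 lower genes, the last 3 of which were singled out after their values were seen, were *Cyp27a1* (-0.74), *Cyp1a2* (-0.67), *Cyp7a1* (-0.62), the rate-limiting enzyme of bile acid synthesis, and *Cyp2c37* (-0.60). *Cyp2e1*, the classic pericentral cytochrome P450, had 98550 and 68611 normalized reads, for a log2 fold change of -0.52 that stayed within 1.5-fold. *Cyp3a11* had 233166 and 240410 (0.04). *Gstm3* and cytochrome P450 genes have close relatives that could share reads.

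The periportal genes, from the opposite end of the lobule, gave a median of -0.07. Of these 14 genes, 0 were more than 1.5-fold higher or lower, beside 4.46% and 7.28% of all tested genes. The lowest were *Pck1* of gluconeogenesis (137023 and 99529 normalized reads, log2 fold change -0.46) and *Cps1* of the urea cycle (187018 and 143505, -0.38). *Cdh1*, encoding E-cadherin, had 2268 and 1947 (-0.22).

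**Figure D5:**
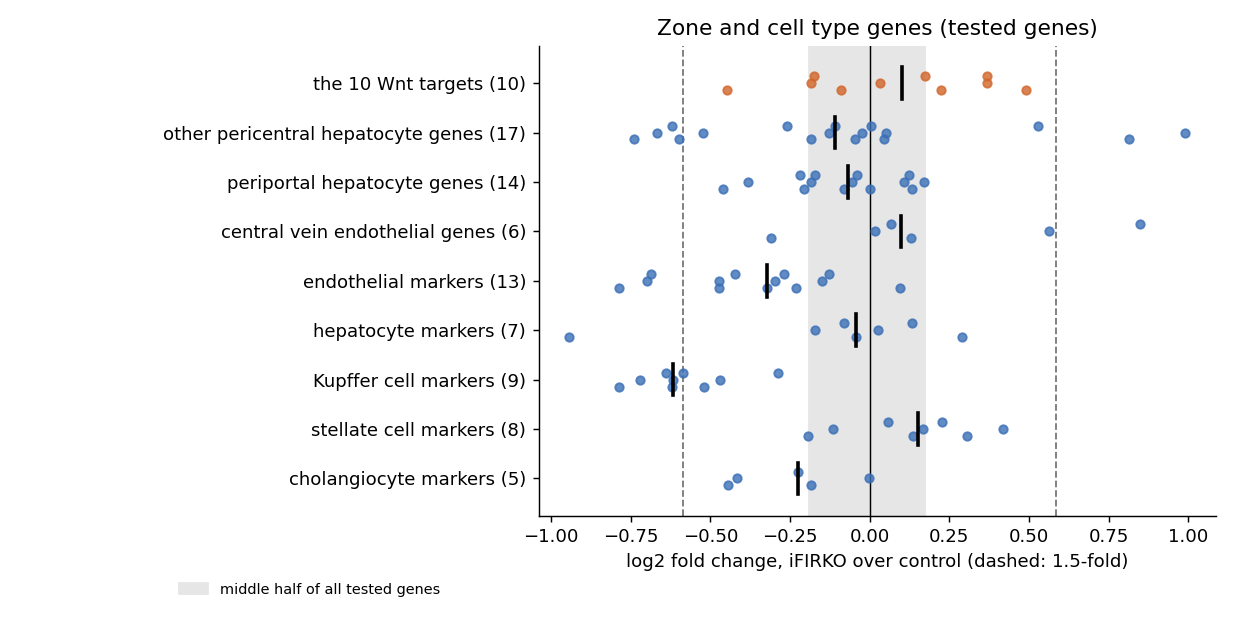
Log2 fold change of iFIRKO over control for the 10 Wnt targets (orange) and for tested genes of zone and cell type lists (blue), with list medians (black bars), the interquartile band of all tested genes (grey) and the 1.5-fold limits (dashed). The pericentral list spreads from -0.74 to 0.99, the periportal list from -0.46 to 0.17, and the Kupffer cell markers all lie below 0.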

How the data were processed

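Stranded mRNA libraries were prepared from total liver RNA of 1 control and 1 iFIRKO sample and sequenced on an Illumina NovaSeq instrument. The deposited unit, made by the authors, was log2 of normalized reads for each symbol, with scaled counts up to 1 listed at 0. The submitters' processing notes name mm10, and the aligner, counter and annotation are not given in the sources used here. After return to the linear scale, the commonest value below 20 normalized reads was taken as 1 read pair (1.99 normalized reads in control, 2.01 in iFIRKO). Of the low values, 52.8% and 51.1% were then within 0.05 of whole pairs, and 0 of the 10 genes were whole in both libraries. Pairs were therefore rounded, and no p-value was computed from them. The intervals rest on these rounded pairs, so those called exact by their method are approximate here.

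Fold changes used a pseudocount of 4.18 normalized reads (a CPM of 0.1), a minimum of 41.8 (a CPM of 1) in 1 or both libraries and a threshold of 1.5-fold, whereas their intervals used the plain ratio of pairs. Single genes with 3 read pairs or fewer in either library were given no fold of their own. Counts over all tested genes and list medians left out no gene for this reason. Without a minimum they therefore include genes with 3 read pairs or fewer. Ratios between genes used the exact conditional interval of the odds ratio. The 10 genes and the 19 other lists were chosen with earlier results of these data known. Of 230 distinct genes listed, the 10 included, 3 were not found in the files. From each list the text names up to 3 genes by change and 2 by level, and every tested relative of the 10 genes. Of the genes so chosen, 1 is not reported here. Other names were chosen after their values were seen. Positions and exon lengths came from GENCODE M21 on GRCm38, and promoters from RefSeq on GRCm38.p6. Steps were tested on simulated data with scipy 1.17.1, numpy 2.4.6, pandas 2.3.3 and matplotlib 3.10.9 under Python 3.11.15. Alternatives covered pseudocount, minimum, scaling, repeated symbols, fold threshold and, added after seeing the data, transcript length.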

Additional observations from a re-analysis of the deposited data

How the results depend on the processing

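Under every alternative tried, 0 of the 10 genes were more than 1.5-fold higher and 0 lower (2-fold in the stricter setting), except that with a minimum CPM of 5 *Lgr5* and *Nkd1* were not tested and the statement covers 8 genes. Their median log2 fold change lay between 0.08 and 0.10, and none of those tested changed sign or left its counting interval, *Glul* ranging from 0.01 to 0.03 and *Axin2* from 0.44 to 0.50. Counts over all tested genes moved with the treatment of low genes and with the threshold: from 597 higher and 976 lower to 371 and 576 with a pseudocount of a CPM of 1, to 1960 and 2620 without a minimum, to 288 and 440 with a minimum CPM of 5 and to 209 and 267 with a 2-fold threshold. The median of all tested genes changed sign to -0.013 under median-ratio scaling and to -0.0047 with the top 20 genes left out of the total.

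Medians of other lists that changed sign were those of the ligands and R-spondins (-0.036), inhibitors (0.12) and central vein genes (-0.31) with a minimum CPM of 5, where *Wnt2* and *Wnt9b* drop out, of the receptors (0.053) and adipocyte markers (0.57) without a minimum, and of the glutamine, glutamate and proline enzymes under median-ratio scaling (-0.014) and with the top 20 genes left out (-0.0054). The median of the other target genes was -0.56 with a minimum CPM of 5. Without a minimum, that of the lymphocyte and neutrophil markers moved from -1.74 to -0.75. The cause was not tested beyond the change in genes included. Levels per kilobase depended on the length used: 16 of 20 values left their counting interval with the longest transcript as length. No paired analysis was possible because only 1 library stood for a genotype. Among the 10 genes *Lgr5* and *Nkd1* had the fewest read pairs, under 100 in each library.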

Other observations

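Enzymes and carriers that supply or use the substrates of glutamine synthetase and ornithine aminotransferase were measured beside *Glul* and *Oat*. Of 18 such genes in the files, 16 were tested, with a median log2 fold change of 0.01. Of the 16, 0 were more than 1.5-fold higher or lower, beside 4.46% and 7.28% of all tested genes. *Gls2*, the liver glutaminase of periportal cells, had 16199 normalized reads in control against 16227 in iFIRKO. The ratio of *Glul* to *Gls2* was 1.63 and 1.66, a log2 difference of 0.03 with an exact interval from -0.03 to 0.09. *Gpt2*, a mitochondrial alanine aminotransferase, had 17672 and 24163, a log2 fold change of 0.45 (interval 0.41 to 0.49). *Glud1*, encoding glutamate dehydrogenase, had 40880 and 45958 (0.17). *Slc38a3*, a pericentral glutamine transporter, had 40400 and 34142 (-0.24), and *Aldh18a1* of proline synthesis had 114.4 and 79.9, with an interval from -1.14 to 0.09.

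Among the remaining cell type lists, the 8 stellate cell markers had a median log2 fold change of 0.15 with 0 past 1.5-fold, and *Lrat*, the retinol-esterifying enzyme of these cells, had 444.1 and 594.9 normalized reads. The 5 tested cholangiocyte markers had a median of -0.23 and summed to 2357 and 2036 normalized reads with the untested marker included. The 7 hepatocyte markers had a median of -0.04, with *Apoa1* lower at -0.94. All 6 erythroid markers were more than 1.5-fold higher, beside 4.46% of all tested genes. The erythroid median was 0.98. Of 5 adipocyte markers, *Fabp4* alone was tested, at 469.9 and 469.0 normalized reads.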
